A study of Mus musculus with 8 samples.

Results

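Osteopontin, encoded by Spp1, and 8 genes for its receptors were followed through sorted leukocytes of the mouse brain, pia and dura after ischemic stroke. The 9 genes were taken by name, as the ligand gene, the gene of the hyaluronan receptor CD44, and the integrin chains Itgav, Itgb1, Itgb3, Itgb5, Itga4, Itga5 and Itga9. They are 9 of the 30406 genes that all 8 libraries share. The counts are unique molecular identifiers (UMIs), each standing for 1 captured transcript. A level is the gene's UMIs summed over the cells of a cluster in a library, given per 1000000 UMIs of that sum (CPM). Levels of the 9 genes are compared for 1 gene between cells and libraries and not between genes. Summed levels of marker lists are set side by side only to describe the cells of a cluster.

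Each library held CD45+CD45iv- leukocytes of male C57BL/6 mice aged 10 to 16 weeks, meaning that the cells carried CD45 but had not been reached by an antibody given into the blood shortly before death. Control tissue came from mice without stroke, described as naive, sham or healthy in different places, and gave 1 library each of brain parenchyma, pia mater and dura mater. Transient middle cerebral artery occlusion (MCAO, a filament model of stroke, with occlusion for 30 or 45 min in the methods of the study) was followed by sampling at 24 h, with 2 brain libraries, 1 pia library and 1 dura library, or at 72 h, with 1 brain library. One library taken as control pia has brain in its title, while its other labels name pia. The study states that repeated experiments were pooled for each compartment, without giving the number of mice in each library. Any p-value below thus takes libraries as the units. Brain at 24 h had 2 libraries and each other group of tissue and time had 1. The spread in the fits therefore also holds differences between tissues in the change at 24 h. Without brain at 24 h replicate 2 no group has replicate libraries, and these differences cannot be told apart from the spread between libraries.

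Osteopontin is a secreted, acidic glycoprotein that also lies in bone matrix. It binds integrins through an RGD motif, and a neighbouring stretch that thrombin exposes binds integrins that contain the α4 or α9 chain. CD44 is a further receptor. Macrophages make osteopontin in many injured tissues, and in the nervous system it is a marker of phagocytes around lesions. An integrin at the cell surface is a pair of 1 α and 1 β chain, so that Itgav pairs with Itgb3, Itgb5 or Itgb1, while Itga4, Itga5 and Itga9 pair with Itgb1.

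The libraries held 6591898 to 20754181 UMIs, and 32457 of 36854 barcodes carried 1 of the 21 cluster names given by the authors. A pair of brain libraries stood apart. Replicate 2 of brain at 24 h and the brain library at 72 h were counted on a list of 31053 genes, and the other 6 libraries on a list of 32285. The pair had 13 cell barcodes in common, and each of them shared 0 to 2 barcodes with any of the 6, which shared 12 to 43 with each other. The labels name v2 and v3 chemistry of the kit without assigning them. The tests that join the sets were therefore also run without brain at 24 h replicate 2. Sums of fewer than 30 cells were left out of the levels, which kept 112 sums.

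The cluster names were checked against marker genes. The 4 microglia markers Tmem119, P2ry12, Cx3cr1 and Sparc summed to 11976 CPM in the border-macrophage cluster CAM_1 of control brain, whereas the 5 border macrophage markers (Pf4, Lyve1, Mrc1, Cd163 and F13a1) summed to 49.8 CPM there. In CAM_1 of control pia the same lists summed to 391 and 6367 CPM, and in control dura to 188 and 6464 CPM. CAM_2 of control brain had 13949 CPM of the microglia list and 15.3 CPM of the border list. The names CAM_1 and CAM_2 thus go against the markers in control brain, and they are used below only as the names of clusters. The stroke-associated myeloid cells (SAMC) carried 365 to 1351 CPM of the microglia list, and of the border list 9.74, 86.2 and 714 CPM in brain at 24 h replicate 1, replicate 2 and brain at 72 h and 3639 CPM in pia at 24 h.

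Spp1 (ENSMUSG00000029304) lies on the forward strand of chromosome 5 at chr5:104435118-104441050 (GENCODE M21, GRCm38). The 250 bases before its start, chr5:104434861-104435110 on the forward strand, are shown because the levels of Spp1 ran from 0 to 106398 CPM, and those of Itga5, chr15:103366792-103367041 on the reverse strand, because Itga5 was the receptor gene with its highest level in SAMC. Both were read from the RefSeq promoter table of GRCm38.p6, which held 8 of the 9 genes (all except Itgb3) and lists 2 starts for Spp1, of which the one nearest the annotated gene start was taken. Capitals mark matches to the TATA box motif, a RUNX motif and the binding motif of NF-Y (on the reverse strand), all spelled out below the sequences. An AP-1 motif was also searched, and all 4 motifs were searched on both strands.
Spp1: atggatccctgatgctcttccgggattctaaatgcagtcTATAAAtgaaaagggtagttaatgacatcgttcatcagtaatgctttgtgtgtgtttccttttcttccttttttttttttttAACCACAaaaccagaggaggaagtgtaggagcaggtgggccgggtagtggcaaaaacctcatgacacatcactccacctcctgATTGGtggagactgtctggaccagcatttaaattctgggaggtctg
Itga5: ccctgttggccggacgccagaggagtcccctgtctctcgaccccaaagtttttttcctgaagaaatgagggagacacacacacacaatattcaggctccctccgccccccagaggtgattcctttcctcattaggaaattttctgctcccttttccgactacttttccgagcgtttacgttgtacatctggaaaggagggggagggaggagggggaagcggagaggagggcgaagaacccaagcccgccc
In the Spp1 window, the letters TATAAA of the TATA box motif span bases 211 to 206 before the start and the RUNX motif AACCACA bases 129 to 123. The NF-Y motif CCAAT lies on the reverse strand at bases 46 to 42. The Itga5 window holds none of the 4 motifs. Of 32851 windows of this length, 12.4% hold TATAAA, 4.4% AACCACA, 33.8% CCAAT and 6.75% the AP-1 motif TGANTCA, so that such matches are a description of the letters and no evidence of binding.

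Spp1 gave 215194 UMIs over all barcodes, and its level was highest in SAMC. Spp1 stood at 106398 CPM in SAMC of brain at 24 h replicate 1, at 35312 CPM in replicate 2, at 16576 CPM in brain at 72 h and at 35227 CPM in pia at 24 h (mean 48378 ± 39671, SD, n = 4 libraries). The SD was nearly as large as the mean, replicate 1 being highest and brain at 72 h lowest. The other libraries had too few SAMC for a level, with 1 cell in control brain, 25 in control pia, 8 in control dura and, at 24 h, 9 in the dura. SAMC were named by the authors from clusters of the same counts, so the height of Spp1 in this cluster is a description and carries no test.

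Next in order came Granulo_1, a cluster named for granulocytes. Granulo_1 held 7426 CPM of Spp1 in brain at 24 h replicate 1, 2429 CPM in replicate 2, 647 CPM in brain at 72 h and 3481 CPM in pia at 24 h. In dura at 24 h it held 297 CPM, against 11.1 CPM in control pia and 26.4 CPM in control dura. Both controls were thus below all 5 libraries after MCAO. Control brain, with 5 cells of Granulo_1, had no level. How many of all genes part these libraries in the same way was not counted, so this only describes the values. The neutrophil markers S100a8, S100a9 and Retnlg summed to 11.1 to 3374 CPM in the same sums of Granulo_1 and did not follow the order of Spp1, with 1020 CPM in brain at 24 h replicate 1 and 2740 CPM in dura at 24 h. The border macrophage list was above the neutrophil list in control pia (2679 against 11.1 CPM), control dura (1160 against 198 CPM), pia at 24 h (617 against 496 CPM) and brain at 72 h (468 against 137 CPM). It was below in both brain libraries at 24 h and in dura at 24 h. Granulo_1 is thus used only as the name of a cluster.

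Behind these followed Macro_1 (731 CPM, 1 library), CAM_1 (mean 697 CPM) and CAM_2 (mean 504 CPM), then Micro_2 (370 CPM) and stress_Micro (349 CPM). By these means the lymphoid clusters stood lower, from Tc (164 CPM) and NK (129 CPM) to Bc (74 CPM), ILC2 (33.6 CPM) and gdTc (19.7 CPM), with mast cells last at 13 CPM. Of the 17 neighbouring pairs in this order that at least 2 libraries held together, 4 differed in the same direction in each such library and by more than the SD of the log2 ratio. SAMC over Granulo_1 and stress_Myeloid over Micro_1 followed the order of the means. The other 2 went against it, since the means rest on different libraries. Stress_Micro was above Micro_2 in both libraries that held the 2 (514 against 300 CPM in brain at 24 h replicate 2, and 184 against 129 CPM at 72 h). Mast cells were above gdTc in both dura libraries, in which gdTc had no Spp1 UMI and mast cells had 1 and 2. The remaining 13 neighbours could not be ranked. Micro_1 and Tc were among them, with Micro_1 above Tc in 4 of 7 libraries. Within brain at 24 h replicate 1, Tc (849 CPM) was above CAM_2 (713), Micro_3 (607), Micro_1 (388) and Micro_2 (359 CPM). It was below CAM_1 (2088 CPM) and Macro_2 (935 CPM) there. This level of Tc came from 33 cells with 38 Spp1 UMIs, of which 1 cell held 14. Without that cell Tc was at 562 CPM, below CAM_2 and Micro_3. Without the libraries of the shorter gene list SAMC remained first (70812 CPM, 2 libraries), ahead of Granulo_1 (2248 CPM) and CAM_1 (522 CPM).

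**Figure D1:**
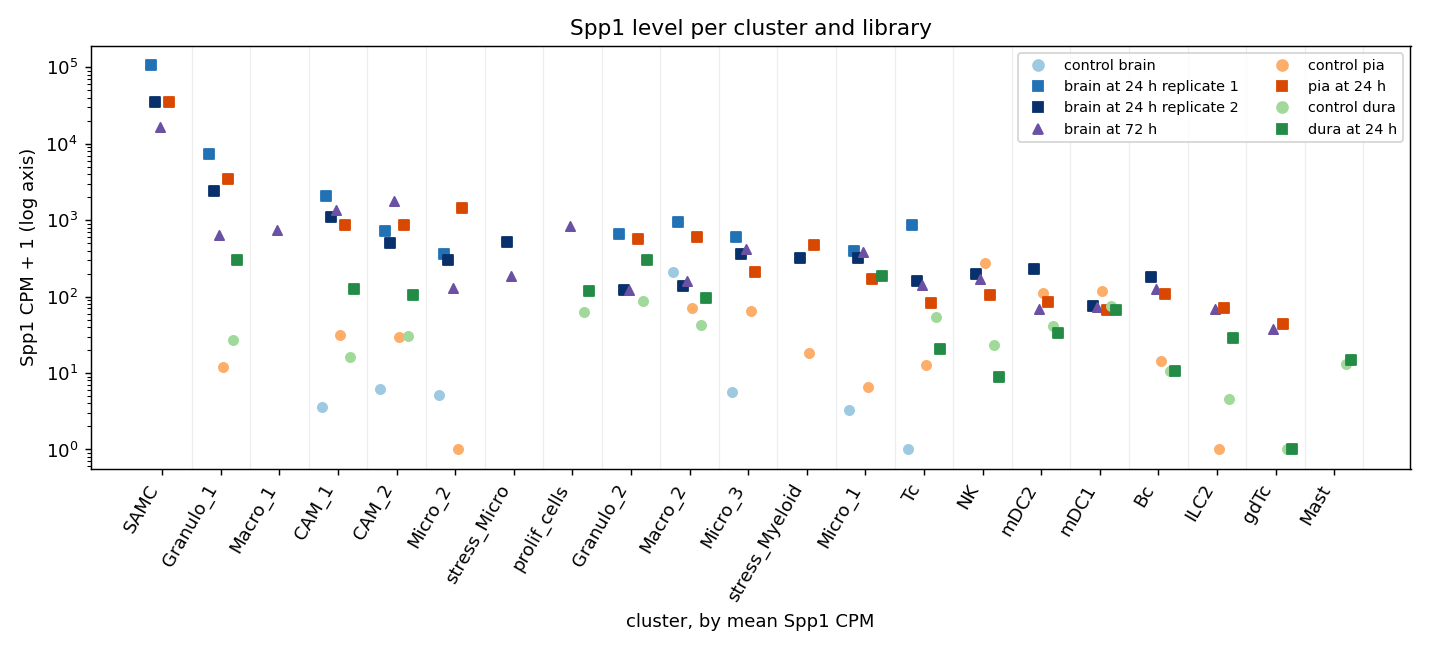
Spp1 level (CPM + 1, log axis) in each of 21 clusters, ordered by mean level; each point is 1 library with at least 30 cells of the cluster, circles are controls, squares 24 h and triangles 72 h. SAMC points lie between 16576 and 106398 CPM, and the control libraries of CAM_1 and CAM_2 lie below those after MCAO.

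Within a library, the level of Spp1 in SAMC exceeded that of the macrophage clusters (CAM_1, CAM_2, Macro_1 and Macro_2 summed) 34.5-fold on average, between 15.2-fold and 46.4-fold in 4 of 4 libraries. SAMC exceeded the microglia clusters 106-fold on average (58.2-fold to 252-fold) and Granulo_1 15.2-fold on average (10.1-fold to 25.6-fold). The ratio was thus above 10 in each library and for each of these 3 comparisons. In single SAMC, the median number of Spp1 UMIs per 1000 UMIs was 63.5 in brain at 24 h replicate 1, 28.6 in replicate 2, 12.4 in brain at 72 h and 21.2 in pia at 24 h. No SAMC in these 4 libraries was without a Spp1 UMI, and the highest cell reached 399.8 per 1000 in replicate 1.

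The share of cells with a UMI depends on depth and on free RNA. Cells with at least 1000 UMIs were therefore thinned to 1000, and cells with fewer were left out of the thinned shares. In brain at 24 h replicate 2 this kept 1868 of 3468 annotated cells. Shares with and without thinning thus rest on different sets of cells. Shares were read beside those of the lymphoid clusters (Bc, Tc, NK, gdTc and ILC2). These are only a rough background, since 1 cell of Tc held 26 Spp1 UMIs in brain at 72 h and 1 held 16 in control dura. After thinning, all SAMC kept in the 4 libraries had a Spp1 UMI, as all SAMC had without thinning. In brain at 24 h replicate 1, 44.0% of cells in the macrophage clusters, 30.7% in the microglia clusters and 32.7% in the lymphoid clusters had one (60.8%, 44.2% and 34.7% without thinning; medians of 2020, 1583 and 1222 UMIs per cell). The microglial share lay below the lymphoid share there after thinning and above it without thinning. The lymphoid share rests on 55 thinned cells, and the part of free RNA in these shares was not tested.

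In brain at 24 h replicate 2, the thinned shares were 27.6%, 19.4% and 15.5% for the macrophage, microglia and lymphoid clusters (37.6%, 27.4% and 27.5% without thinning; medians of 1407, 857 and 1877 UMIs). In brain at 72 h they were 33.4%, 11.4% and 6.86% (46.4%, 15.2% and 8.21% without thinning; medians of 3164, 1150 and 1180.5 UMIs). In pia at 24 h they were 21.3%, 12.6% and 7.81% (31.3%, 19.1% and 8.21% without thinning; medians of 1898, 1540 and 1059 UMIs). The macrophage share was the highest of the 3 in each of these libraries. In control brain, control pia and control dura the macrophage share was 0.843%, 3.38% and 2.61%, and the lymphoid share 1.89%, 2.01% and 1.05%. The lymphoid share of control brain rests on 53 thinned cells. Without thinning, 67 of its 68 lymphoid cells had no Spp1 UMI, and the other, an NK cell, had at least 10 after thinning. A share from 1 such cell cannot serve as a background for the macrophage clusters of control brain. Their CAM_1 and CAM_2 cells carried microglia markers, as given above. Dura at 24 h had 5.98% in the macrophage and 1.14% in the lymphoid clusters.

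Few cells held most of the Spp1 UMIs. SAMC made up 6.57% of annotated cells in brain at 24 h replicate 1 and held 90.9% of its 108210 annotated Spp1 UMIs. In replicate 2 they were 3.46% of cells with 66.2% of the UMIs, and in brain at 72 h 8.02% of cells with 81.0%. In pia at 24 h they were 2.42% of cells with 55.5% of the UMIs, and in dura at 24 h 0.199% of cells with 20.6%. Granulo_1 was the next largest source in brain at 24 h replicate 2 (19.6%) and in pia at 24 h (19.0%), whereas it held 2.15% in replicate 1. In brain at 72 h CAM_2 held 9.19% and Granulo_1 4.94%.

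The control libraries had few Spp1 UMIs. Of 258 annotated Spp1 UMIs in control brain, 183 came from 1 cell, the only one of that library in the SAMC cluster. Control pia had 455 and control dura 233, of which Macro_2 held 37.1% and 27.5%. In the 25 cells of control pia assigned to SAMC, 20.0% had a Spp1 UMI, against 88.9% of the 9 cells of dura at 24 h. The name SAMC therefore covered cells without detected Spp1 in control pia.

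**Figure D2:**
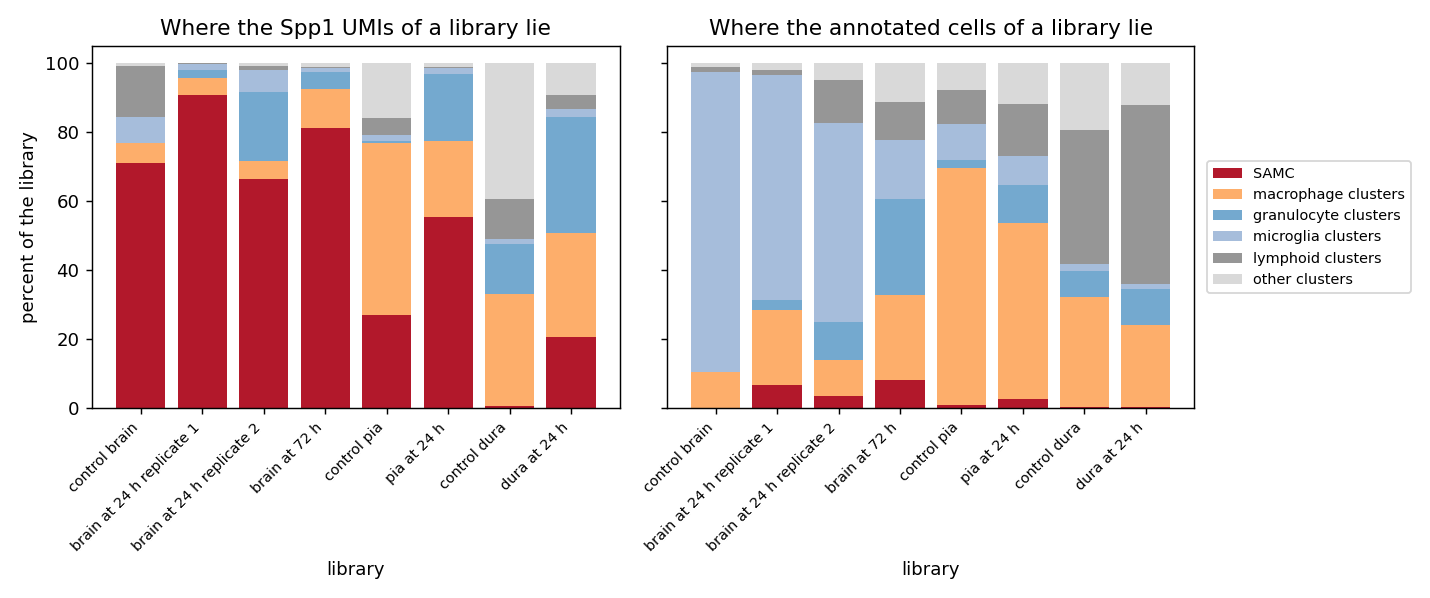
Share of each library's annotated Spp1 UMIs (left) and of its annotated cells (right) in percent, stacked by group of clusters. SAMC hold 90.9%, 66.2% and 81.0% of the UMIs in the 3 brain libraries after MCAO while making up 6.57%, 3.46% and 8.02% of their cells.

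Among annotated cells of at least 1000 UMIs, those with at least 10 Spp1 UMIs after thinning to 1000 were counted without regard to cluster. There were 304 in brain at 24 h replicate 1, 77 in replicate 2, 345 in brain at 72 h and 108 in pia at 24 h, and 1 to 3 in each of the other 4 libraries. SAMC were 90.8%, 85.7%, 93.6% and 60.2% of these cells in the 4 libraries. Of the 43 remaining cells of pia at 24 h, 23 were in Granulo_1, 10 in CAM_1 and 7 in Macro_2. The pia thus had the largest part of high cells outside SAMC among these 4 libraries.

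The comparison of 24 h with control asked whether levels within a cluster differed after MCAO, with tissue as a covariate. It could be fitted in CAM_1, CAM_2, Macro_2 and Tc, which had at least 30 cells in each of the 3 control and 4 libraries at 24 h. Spp1 in CAM_1 was at 2.62, 30.7 and 15.1 CPM in control brain, pia and dura, and at 2088, 1086, 870 and 126 CPM in brain at 24 h replicates 1 and 2, pia at 24 h and dura at 24 h. The groups did not overlap, and the level in dura at 24 h was the lowest of the 4. How many of all genes part the 3 controls from the 4 libraries at 24 h was not counted. Statements on overlap here and below therefore only describe the values. The log2 fold change was 5.22 ± 0.98 (SE), with an adjusted p of 0.509 in edgeR's quasi-likelihood test and of 8.37e-08 in DESeq2. A gene was called with a fold of 2 or more at an adjusted p under 0.05, so that Spp1 was called by DESeq2 and not by edgeR.

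In CAM_2, Spp1 was at 5.09, 28.4 and 29.9 CPM in control brain, pia and dura and at 713, 500, 871 and 103 CPM in the same order of libraries at 24 h. These groups did not overlap either, and the log2 fold change was 4.48 ± 0.74 (adjusted p = 0.159 in edgeR and 0.000101 in DESeq2). In Macro_2, Spp1 was at 210, 70.3 and 42.0 CPM in the controls and at 935, 134, 605 and 94.7 CPM at 24 h, so that the groups overlapped (log2 fold change 1.83 ± 0.64, adjusted p = 0.968 in edgeR). The overlap in Macro_2 rests on control brain alone, where the level came from 13 UMIs. In that library 435 of the 440 cells of the macrophage clusters had no Spp1 UMI, so few cells carried this level. In Tc, Spp1 was at 0, 11.7 and 52.4 CPM in the controls and at 849, 158, 80.9 and 19.8 CPM at 24 h (log2 fold change 1.36 ± 1.02, adjusted p = 0.998 in edgeR). In control dura 16 of the 19 Spp1 UMIs of Tc came from 1 cell, and without that cell the level was 8.31 CPM. In brain at 24 h replicate 1 it was 14 of 38, and the level without that cell was 562 CPM. The lymphoid share given above is only a rough background, and in control brain, where it came from 1 cell, it is none. The part of free RNA in these levels was not tested.

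The cells under the names CAM_1 and CAM_2 differed between the groups in brain. The microglia markers summed to 11976 CPM in CAM_1 of control brain and to 3894 and 2309 CPM in brain at 24 h replicates 1 and 2, and in CAM_2 to 13949 CPM against 3553 and 1689 CPM. In pia and dura they stayed between 188 and 599 CPM in both clusters. In Macro_2 of brain the microglia list was at 1421 CPM in control and at 455 and 467 CPM in replicates 1 and 2. The border list there was at 807 CPM in control and at 177 and 489 CPM at 24 h. In Macro_2 of pia and dura the border list was at 1653 and 2317 CPM in control and at 1313 and 1439 CPM at 24 h. The part of these shifts in the differences at 24 h given here and below for Spp1, Cd44, Itga5, Itgb5 and Itga9 was not tested.

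Set against all genes, edgeR called 0 of 8 members tested in CAM_1 (0% of 7537 genes called), 0 of 5 in CAM_2 (0.0207% of 4837), 0 of 8 in Macro_2 (0% of 8245) and 0 of 6 in Tc (0% of 4712). At an unadjusted p under 0.05 edgeR had 445, 402, 332 and 84 genes, and DESeq2 called 22, 4, 5 and 0 genes. Without brain at 24 h replicate 2 the share of genes called was 4.77%, 4.52%, 2.58% and 0.235% in the 4 clusters. Spp1 then rose in CAM_2 (log2 fold change 4.69 ± 0.51, adjusted p = 0.000692 in edgeR) and in Macro_2 (2.19 ± 0.32, adjusted p = 0.00147), and stood at 5.32 ± 1.02 in CAM_1 (adjusted p = 0.0886) and at 1.26 ± 1.51 in Tc (adjusted p = 0.866). With the receptor genes given below, 3 of 8 members were called in CAM_1, 2 of 4 in CAM_2, 2 of 8 in Macro_2 and none in Tc, on 6 libraries of 1 gene list.

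Within tissues, each library at 24 h was set against its control by counting error alone. Spp1 in CAM_1 was 28.4-fold higher in pia (95% interval 20.9 to 39.5) and 8.38-fold higher in dura (3.92 to 21.4). Control brain had 1 UMI of Spp1 in CAM_1, so that the ratios of 796 in replicate 1 and 414 in replicate 2 had intervals of 143 to 31469 and of 73.7 to 16426. In CAM_2 the ratio was 30.7 in pia (16 to 67.6) and 3.46 in dura (1.22 to 13.5). The dura intervals lay below the pia intervals in CAM_2 and shared a small stretch with them in CAM_1, and the difference between tissues was not tested.

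Cd44, the hyaluronan receptor by which leukocytes also bind osteopontin, was highest in the clusters Granulo_1 and Granulo_2. In Granulo_1 it stood at 344 CPM in brain at 24 h replicate 1, 870 CPM in replicate 2, 660 CPM in brain at 72 h, 308 CPM in pia at 24 h, 203 CPM in dura at 24 h, and 55.4 and 184 CPM in control pia and dura. Each library of brain exceeded each of pia and dura, and replicate 2 and brain at 72 h were the 2 highest. Without these 2 libraries Granulo_2 (257 CPM) came before Granulo_1 (219 CPM). Within libraries Granulo_1 exceeded the macrophage clusters in 7 of 7, from 2.85-fold to 9.47-fold.

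In SAMC, Cd44 was at 50.9, 246, 188 and 59.4 CPM in brain at 24 h replicates 1 and 2, brain at 72 h and pia at 24 h. These levels lay above those of the microglia clusters in 4 of 4 libraries (2.56-fold to 14.5-fold) and below Granulo_1 in 4 of 4 (0.149 to 0.285 of its level), and against the macrophage clusters they were higher in 2 of 4. Microglia clusters had the least Cd44, with 0.491 CPM in control brain, 3.45 and 24.4 CPM in brain at 24 h and 34.8 CPM in brain at 72 h. Of 17 neighbouring pairs in the order of clusters, 5 differed beyond the spread within the libraries they shared. Following the order of the means were 3 of them, among them gdTc (154 CPM) over mDC2 (140 CPM). The other 2 went against it, with mast cells above Tc in 2 of 2 libraries and Micro_2 (mean 15.5 CPM) above Micro_1 (mean 17.5 CPM) in 6 of 6. In 1 of these 6, control pia, neither had a UMI, and the ratio there came from the 0.5 counts added to each sum.

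In CAM_1, Cd44 was at 5.24, 10.2 and 8.62 CPM in control brain, pia and dura and at 21.3, 196, 34.9 and 18.8 CPM in brain at 24 h replicates 1 and 2, pia and dura at 24 h. All 4 libraries at 24 h were above the 3 controls, and the gene was not called (log2 fold change 2.22 ± 0.90, adjusted p = 0.829 in edgeR). Without brain at 24 h replicate 2, Cd44 rose in CAM_1 (1.62 ± 0.37, adjusted p = 0.0183 in edgeR), a cluster whose microglia markers were lower in brain at 24 h than in control. In Macro_2 it was at 32.3, 29.1 and 42.7 CPM in the controls and at 196, 337, 53.5 and 45.5 CPM at 24 h, again without overlap (0.97 ± 0.48, adjusted p = 1.00), and without replicate 2 it did not pass the test (0.62 ± 0.25, adjusted p = 0.149).

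Itgav, the αv chain that carries the binding site for RGD, was spread over many clusters. Its mean was highest in stress_Micro (135 CPM, with 190 CPM in brain at 24 h replicate 2 and 80.3 CPM in brain at 72 h), but this cluster reached 30 cells in those 2 libraries alone. Among the other 6 libraries ILC2, the innate lymphoid cells, came first at 96.1 CPM, and ILC2 exceeded Tc in 5 of 5 libraries, from 1.89-fold to 33.5-fold. In SAMC, Itgav was at 20.6 CPM in brain at 24 h replicate 1, 168 CPM in replicate 2, 125 CPM in brain at 72 h and 32.0 CPM in pia at 24 h. SAMC exceeded the macrophage clusters in 4 of 4 libraries, though by 1.03-fold at the lowest and 1.75-fold at the highest.

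Itgb3, the β3 chain that pairs with αv and, on platelets, with Itga2b, gave 518 UMIs in all. It was highest in ILC2, at 47.9 CPM in brain at 72 h, 55.9 CPM in control pia, 29.8 CPM in pia at 24 h, 32.7 CPM in control dura and 45.8 CPM in dura at 24 h (mean 42.4, n = 5 libraries). In the 3 libraries from brain at 24 h and pia at 24 h with SAMC it had no UMI in this cluster, and in brain at 72 h it had 8 UMIs (3.47 CPM). The αvβ3 pair was therefore represented in SAMC by Itgav at these depths with few or no Itgb3 UMIs. It passed the filter for low counts in none of the 4 fitted clusters.

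Itgb5, the β5 chain that pairs with αv, was highest in microglia. In Micro_1 it stood at 2023 CPM in control brain, 2045 and 1653 CPM in brain at 24 h replicates 1 and 2, 1121 CPM in brain at 72 h, 1239 CPM in control pia, 1079 CPM in pia at 24 h and 444 CPM in dura at 24 h. Micro_1, stress_Micro, Micro_2 and Micro_3 took the first 4 places (1372, 1129, 1093 and 1076 CPM), and each other cluster had a lower mean. SAMC held 341, 386, 526 and 310 CPM in brain at 24 h replicates 1 and 2, brain at 72 h and pia at 24 h, which was 0.201 to 0.508 of the level of the microglia clusters in the same library.

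In the macrophage clusters of brain, Itgb5 had its highest level in control brain. In CAM_1 it was at 1633 CPM in control brain and at 879 and 433 CPM in brain at 24 h replicates 1 and 2, with 539 CPM in brain at 72 h. In pia it was at 288 CPM in control and 176 CPM at 24 h, and in dura at 265 and 313 CPM. CAM_2 had 2057 CPM in control brain, 886 and 583 CPM in brain at 24 h, and 284 to 412 CPM in the 4 libraries of pia and dura. In both clusters the microglia markers were lower in brain at 24 h than in control brain, as given above. The log2 fold change at 24 h was −0.76 ± 0.46 in CAM_1 and −0.72 ± 0.43 in CAM_2 (adjusted p = 0.835 and 0.685 in edgeR), and without replicate 2 it was −0.53 ± 0.24 and −0.56 ± 0.26 (adjusted p = 0.180 and 0.223).

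In Macro_2, where microglia markers summed to 1421 CPM in control brain, Itgb5 was at 743 CPM in control brain and at 133 and 179 CPM in brain at 24 h. In pia it was at 442 and 399 CPM and in dura at 292 and 402 CPM in control and at 24 h. The brain ratios were 0.179 (95% counting interval 0.101 to 0.305) and 0.240 (0.165 to 0.353), the pia ratio 0.902 (0.818 to 0.995) and the dura ratio 1.37 (1.22 to 1.56). Over the 7 libraries the log2 fold change was −0.83 ± 0.49 (adjusted p = 1.00 in edgeR), and without brain at 24 h replicate 2 it was −0.40 ± 0.71 (adjusted p = 0.847).

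Itgb1, the common β1 chain, was detected in all 21 clusters and was highest in NK cells. NK cells held 532 CPM in brain at 24 h replicate 2, 427 CPM in brain at 72 h, 511 CPM in control pia, 311 CPM in pia at 24 h, 420 CPM in control dura and 384 CPM in dura at 24 h (mean 431). Tc followed with 223 CPM in control brain, 89.4 and 506 CPM in brain at 24 h replicates 1 and 2, 447 CPM in brain at 72 h, 309 and 193 CPM in control pia and pia at 24 h, and 359 and 220 CPM in control dura and dura at 24 h. SAMC were at 142, 296, 223 and 105 CPM in brain at 24 h replicates 1 and 2, brain at 72 h and pia at 24 h, within 0.907-fold to 1.25-fold of the macrophage clusters. In the 4 fitted clusters the log2 fold change of Itgb1 at 24 h lay between −0.23 and 0.18, and none was called. Without brain at 24 h replicate 2 it lay between −0.75 and −0.03. The lowest was that of Tc (−0.75 ± 0.18, adjusted p = 0.0449 in edgeR), which passed the p threshold but not the fold of 2.

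Itga4, the α4 chain of the lymphocyte integrin VLA-4, was highest in Tc. Its level there was 99.2 CPM in control brain, 67.1 and 499 CPM in brain at 24 h replicates 1 and 2, 392 CPM in brain at 72 h, 70.1 and 87.1 CPM in control pia and pia at 24 h, and 108 and 49.5 CPM in control dura and dura at 24 h. Replicate 2 and brain at 72 h stood apart again, and the other 6 libraries had a mean of 80.1 ± 21.8 CPM (SD). The dendritic cluster mDC2 was close to Tc (161 against 171 CPM over all libraries), and the 2 could not be ranked. SAMC held 0, 4.11, 39.9 and 13.7 CPM in brain at 24 h replicates 1 and 2, brain at 72 h and pia at 24 h, with 0 UMIs in replicate 1.

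Itga5, the α5 chain of the fibronectin receptor, was the receptor gene with its highest mean in SAMC. Its level in SAMC was 414 CPM in brain at 24 h replicate 1, 300 CPM in replicate 2, 48.6 CPM in brain at 72 h and 210 CPM in pia at 24 h (mean 243). SAMC exceeded the macrophage clusters in 4 of 4 libraries (1.14-fold to 2.47-fold) and the microglia clusters in 4 of 4 (1.32-fold to 7.90-fold). Against CAM_1 it was higher in 2 of 4, so that SAMC and CAM_1 could not be ranked. T and B cells had the least Itga5 (2.29 and 1.18 CPM).

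In CAM_1, Itga5 was at 18.3, 76.7 and 43.1 CPM in control brain, pia and dura and at 254, 345, 202 and 131 CPM in brain at 24 h replicates 1 and 2, pia and dura at 24 h, without overlap. The log2 fold change was 2.20 ± 0.54 (adjusted p = 0.740 in edgeR and 0.0251 in DESeq2). The ratios to control were 13.8 (95% counting interval 6.65 to 34.6) and 18.8 (8.74 to 48.3) in brain, 2.63 (2.11 to 3.30) in pia and 3.05 (1.88 to 5.19) in dura. All 4 intervals lay above 1.

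In CAM_2, Itga5 was at 10.2, 0 and 22.5 CPM in control brain, pia and dura and at 156, 58.9, 59.4 and 13.4 CPM at 24 h, and the groups overlapped through dura (2.70 ± 0.97, adjusted p = 0.547 in edgeR). In Macro_2 it was at 0, 107 and 53.8 CPM in the controls and at 227, 30.9, 204 and 109 CPM at 24 h (1.28 ± 0.66, adjusted p = 1.00). Brain at 24 h replicate 2 was the lowest of the 4 in Macro_2 and the highest in CAM_1. Without this library Itga5 rose in CAM_1 (1.94 ± 0.33, adjusted p = 0.00801), in CAM_2 (3.12 ± 0.69, adjusted p = 0.0201) and in Macro_2 (1.09 ± 0.26, adjusted p = 0.0140), all in edgeR. In CAM_1, CAM_2 and Macro_2 of brain the microglia markers were lower at 24 h, as given above, and the part of this in the levels of Itga5 was not tested.

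**Figure D3:**
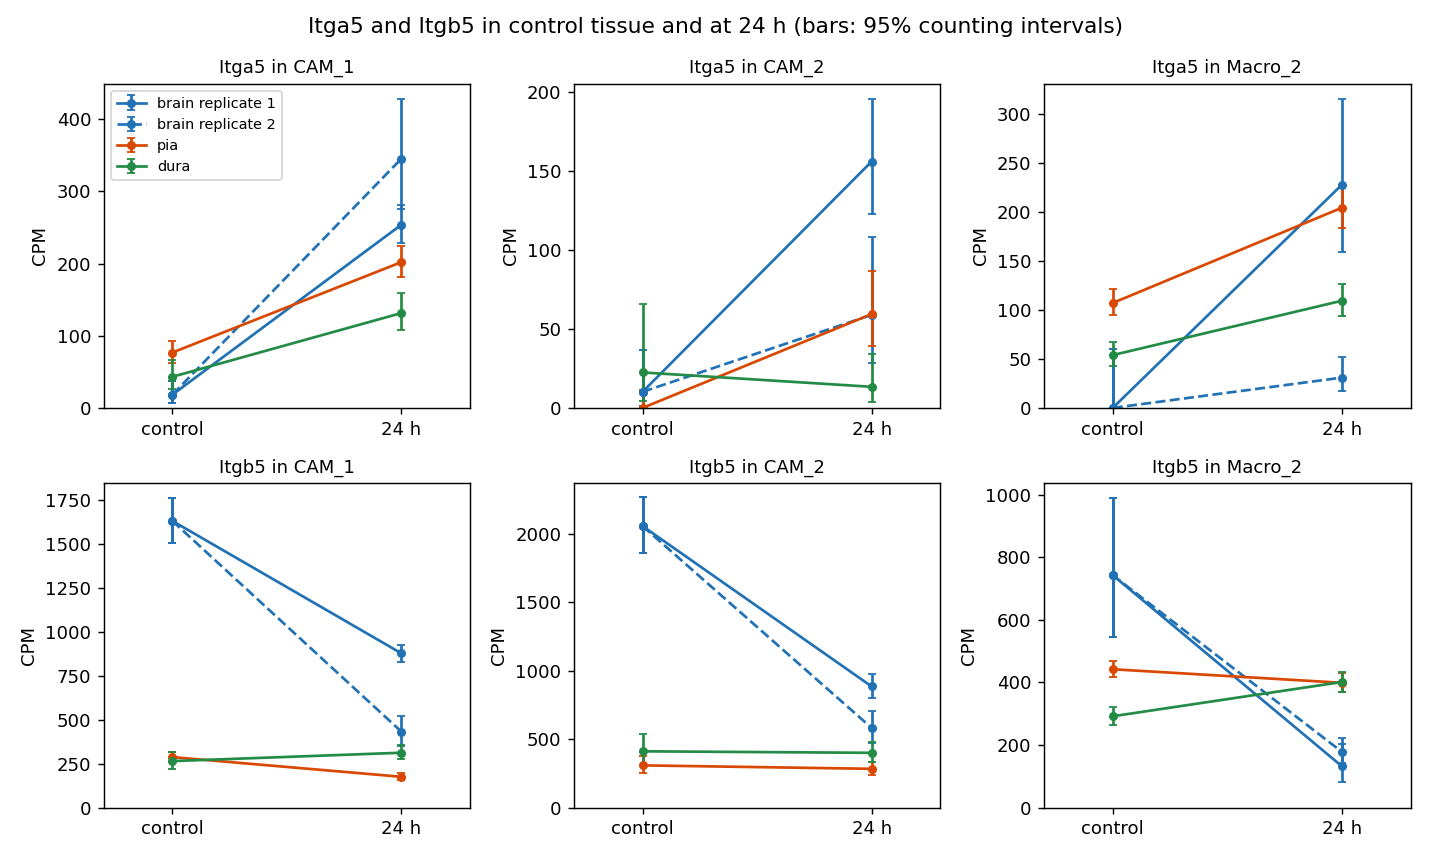
Itga5 (top) and Itgb5 (bottom) levels in CPM for CAM_1, CAM_2 and Macro_2 in control tissue and at 24 h; each line joins a tissue's control library to a library at 24 h, and bars are 95% counting intervals. Itga5 in CAM_1 goes from 18.3 CPM in control brain to 254 and 345 CPM, whereas Itgb5 in CAM_1 goes from 1633 to 879 and 433 CPM.

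Itga9, the α9 chain that binds the stretch of osteopontin exposed by thrombin, gave 852 UMIs. Its mean was highest in stress_Micro (64.3 CPM, 2 libraries) and, among the 6 libraries of the longer gene list, in CAM_1 (13.4 CPM). NK cells, gdTc and ILC2 had no Itga9 UMI in any sum. In CAM_1 it was at 21, 20.5 and 17.2 CPM in control brain, pia and dura and at 4.66, 45.8, 9.83 and 7.51 CPM in brain at 24 h replicates 1 and 2, pia and dura at 24 h. All libraries at 24 h except replicate 2 were below the controls, and without replicate 2 Itga9 fell in CAM_1 (log2 fold change −1.39 ± 0.39, adjusted p = 0.0437 in edgeR).

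**Figure D4:**
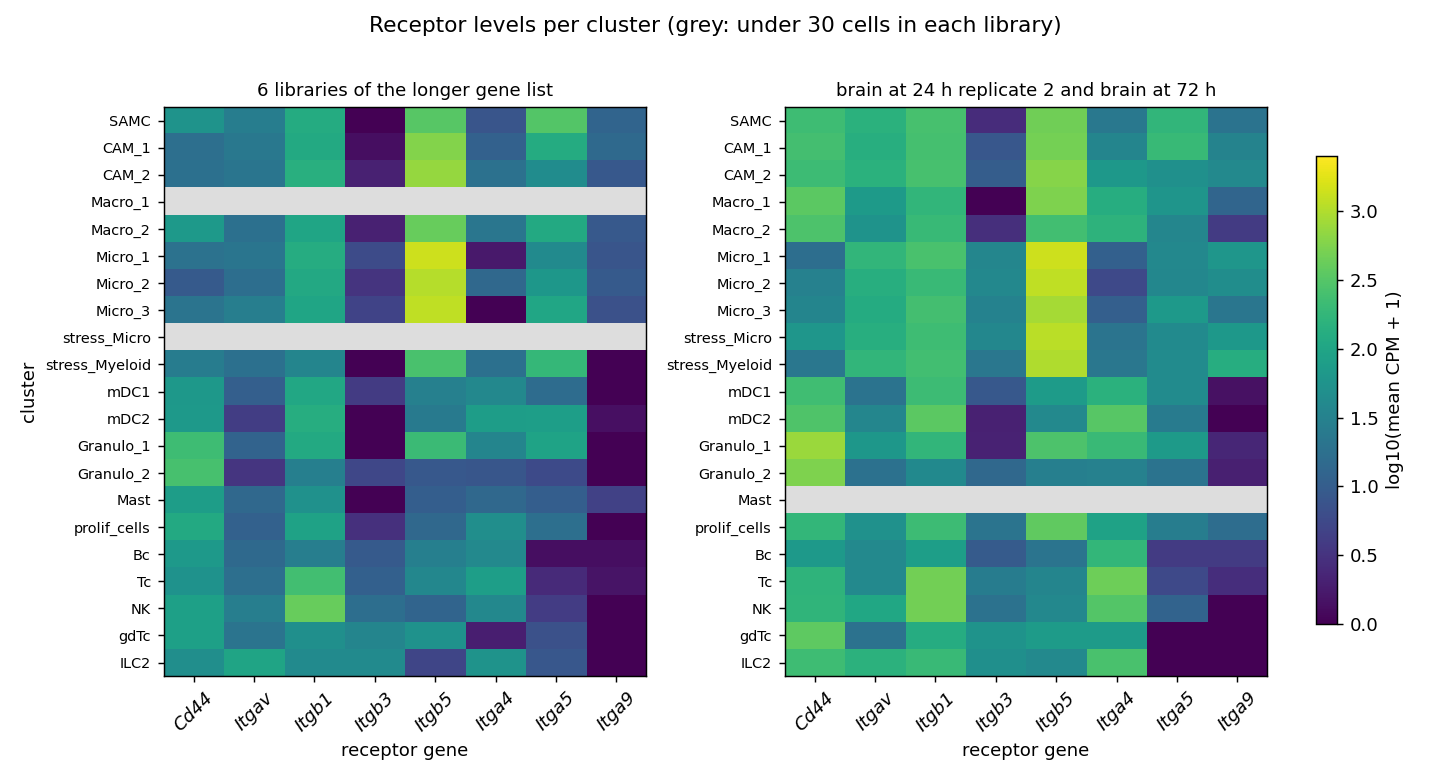
Mean level of the 8 receptor genes per cluster as log10(mean CPM + 1), on the left over the 6 libraries of the longer gene list and on the right over replicate 2 of brain at 24 h and the 72 h library; grey marks clusters with under 30 cells. Itgb5 is highest in the microglia clusters and Cd44 in Granulo_1 and Granulo_2 on both sides.

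In the comparison of pia and dura with brain, with time as a covariate, edgeR called none of the members in the 4 clusters, where 9.45% (CAM_1), 5.66% (CAM_2), 0.303% (Macro_2) and 0.467% (Tc) of all genes were called. The nearest to the threshold was Itgb5, lower in pia and dura than in brain. Its log2 fold change was −1.58 ± 0.45 in CAM_1 (adjusted p = 0.0673 in edgeR and 0.0161 in DESeq2) and −1.57 ± 0.43 in CAM_2 (0.0617 and 0.0184). Cd44 in Macro_2 stood at −1.59 ± 0.50 (adjusted p = 0.174 in edgeR) and Itga4 in Macro_2 at −2.25 ± 0.66 (adjusted p = 0.147). The border list in Macro_2 was lower in brain than in pia and dura, as given above. The part of this in the Macro_2 differences between tissues, here and below, was not tested.

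Without brain at 24 h replicate 2 the shares of all genes called were 27.6%, 22.6%, 3.05% and 1.41% in the same order of clusters. In that fit Itgb5 was lower in pia and dura in CAM_1 (−1.91 ± 0.24, adjusted p = 1.60e-05) and CAM_2 (−1.85 ± 0.26, adjusted p = 3.94e-05), and Itga5 was lower in CAM_2 (−1.91 ± 0.53, adjusted p = 0.0134). Itga4 was higher in pia and dura in CAM_1 (3.59 ± 0.81, adjusted p = 0.00284). In Macro_2, Spp1 (−1.59, adjusted p = 0.0272) and Cd44 (−1.29, adjusted p = 0.0263) were lower. The members called were thus 2 of 8 in CAM_1 and 2 of 4 in CAM_2, clusters whose brain cells carried microglia markers, and 2 of 8 in Macro_2.

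The 2 brain libraries at 24 h were compared with each other cluster by cluster, on genes with at least 20 UMIs in the 2 sums together. Cd44 was higher in replicate 2 in 8 of 8 clusters (1.70-fold to 9.13-fold), Itgav in 8 of 8 (2.76-fold to 8.77-fold), Itgb3 in 3 of 3, Itga4 in 4 of 4, Itga9 in 2 of 2 and Itgb1 in 9 of 10. Spp1 was higher in replicate 2 in 0 of 10 (0.145 to 0.837 of replicate 1), Itgb5 in 2 of 8 and Itga5 in 3 of 8. The median log2 ratio over all genes lay between −0.08 and 0.30 in these clusters. Replicate 2 and replicate 1 also differ in gene list and barcode set. The border list summed to 7.99 CPM in CAM_1 of replicate 1 and 566 CPM in replicate 2, to 6.24 and 648 CPM in CAM_2, and to 177 and 489 CPM in Macro_2. Cells of the microglia clusters had a median of 1583 and 857 UMIs, with 0.761% and 3.24% mitochondrial UMIs. Barcodes without a cluster name were 7.62% and 20.2%. The part of any of these in the ratios was not tested.

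Brain at 72 h was nearer to replicate 2 than to replicate 1 for the same genes. Across clusters, the median log2 ratio of 72 h to replicate 2 was −0.19 for Cd44, −0.46 for Itgav, −0.13 for Itgb1 and −0.01 for Itgb3, whereas that of 72 h to replicate 1 was 1.63, 2.49, 0.73 and 2.75. Within SAMC, Spp1 at 72 h was 0.469 of its level in replicate 2 and 0.156 of that in replicate 1, and Itga5 was 0.162 and 0.118. Itgb5 in SAMC was 1.36-fold and 1.54-fold higher at 72 h. In CAM_2, Spp1 at 72 h was 3.53-fold its level in replicate 2, while in Granulo_1 it was 0.267 of it. There was 1 library at 72 h, so these ratios have no replicate check, and time cannot be told apart from library for either replicate. Replicate 1 also differed from brain at 72 h in gene list and barcode set.

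**Figure D5:**
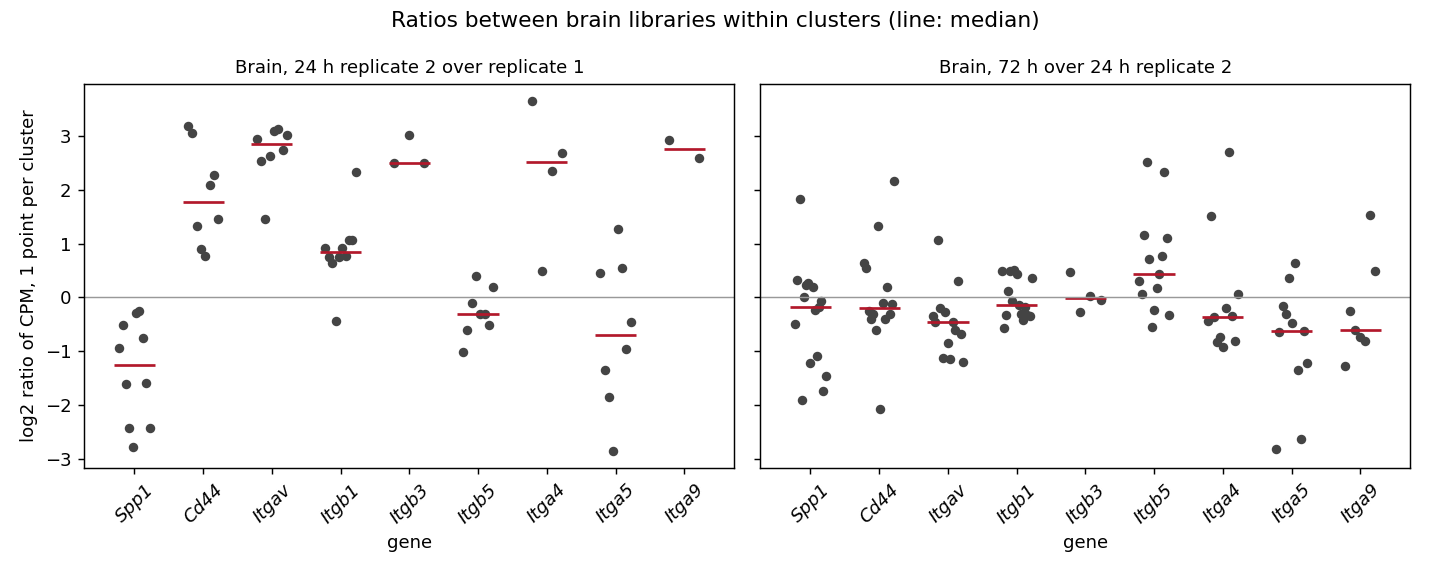
Log2 ratio of CPM between brain libraries for the 9 genes, on the left 24 h replicate 2 over replicate 1 and on the right 72 h over 24 h replicate 2; each point is 1 cluster and the red line is the median. On the left Cd44, Itgav, Itgb3, Itga4 and Itga9 lie above 0 in each cluster and Spp1 below it, and on the right the medians lie between −0.62 and 0.44.

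Receptor genes were also read in single cells of at least 1000 UMIs, thinned to 1000. In brain, most such cells of the microglia clusters, the pooled macrophage clusters and SAMC had a UMI of at least 1 receptor gene. In the pooled macrophage clusters of pia and dura fewer had one, which did not hold for Macro_2 alone. In the microglia clusters the share was 85.9% in control brain (95% interval 84.7 to 87.0), 84.4% and 80.0% in brain at 24 h replicates 1 and 2 and 76.4% in brain at 72 h. In SAMC it was 63.2% (57.3 to 68.8), 81.1% (70.3 to 89.3), 71.6% (67.3 to 75.6) and 50.6% (39.0 to 62.2) in replicates 1 and 2, brain at 72 h and pia at 24 h. The macrophage clusters had 80.3% in control brain, 68.3% and 71.0% in brain at 24 h and 65.3% in brain at 72 h, against 47.8% and 45.4% in control pia and pia at 24 h and 41.8% and 45.8% in control dura and dura at 24 h. The dendritic clusters of pia and dura had 23.9% to 30.4%, and Granulo_2 of control dura and dura at 24 h had 16.5% and 13.9%. The intervals cover counting error only. The share in the lymphoid clusters was 22.7% to 56.5% over the libraries, and since the 8 genes differ in their clusters this is a sum of receptor types and not a measure of binding.

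Other genes of the pathway were read from 4 lists. At 24 h, edgeR called none of the tested genes in any list or cluster, 2 to 12 of them being tested per list in CAM_1, CAM_2 and Macro_2. In CAM_1 the median log2 fold change was 0.08 over 5 other ligands, 1.90 over 3 enzymes that cut or crosslink osteopontin, 0.58 over 3 other integrin chains and −0.03 over 11 genes of integrin activation and adhesion signalling, beside 0.04 over all genes. In CAM_2 these medians were −0.34, 3.09, 0.14 and −0.12 beside 0.03, and in Macro_2 0.45, 0.15, 0.91 and 0.06 beside 0.05. In Tc they were −0.10, −0.28 and 0.18 beside 0.04, and none of the enzymes was tested. Without brain at 24 h replicate 2, edgeR called 4.77%, 4.52%, 2.58% and 0.235% of all genes at 24 h in CAM_1, CAM_2, Macro_2 and Tc. Tested in the same order of lists were 4, 2, 3 and 12 genes in CAM_1 and 2, 2, 3 and 11 in CAM_2. In Macro_2 they were 5, 3, 5 and 11, and in Tc 1, 0, 4 and 11. In that fit edgeR called 5 list genes at 24 h, all higher, named here after their values were seen. They were Thbs1, which encodes thrombospondin 1, in CAM_1 (2.08, adjusted p = 0.0174), Mmp12 in CAM_2 (7.92, adjusted p = 1.15e-07), and in Macro_2 Fn1 (3.99, adjusted p = 1.39e-11), Tgm2 (1.47, adjusted p = 0.000194) and Parvg (1.07, adjusted p = 0.0336).

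Between tissues, 9.45% of all genes were called in CAM_1, 5.66% in CAM_2 and 0.303% in Macro_2. In CAM_1 and CAM_2 the brain cells carried microglia markers, and in Macro_2 they had less of the border list than those of pia and dura, as given above. The part of this in the differences between tissues was not tested. The ligand list held 1 gene called higher in pia and dura in each of CAM_1, CAM_2 and Macro_2. This was Vcam1, the endothelial and macrophage ligand of VLA-4 (log2 fold change 5.31 ± 0.47, 4.57 ± 0.76 and 5.11 ± 0.63, adjusted p = 0.00175, 0.0113 and 0.0177 in edgeR). Fn1, which encodes fibronectin, the ligand of α5β1, was lower in Macro_2 (−2.95 ± 0.51, adjusted p = 0.0435). Of the enzymes, 2 of 3 were lower in CAM_1 and CAM_2, namely Mmp12, the macrophage elastase (−7.39 and −5.54, adjusted p = 0.00841 and 0.0125), and Tgm2, a transglutaminase (−2.59 and −2.37, adjusted p = 0.0483 and 0.0486). Mmp9, the gelatinase B gene, was higher in CAM_2 (4.96 ± 1.06, adjusted p = 0.0256).

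Of the other integrin chains 1 of 3 tested, Itga6, the laminin-binding α6 chain, was lower in pia and dura in CAM_1 and CAM_2 (−2.68 and −3.30, adjusted p = 0.0483 and 0.00782). The limit given above on the brain cells of CAM_1 and CAM_2 holds here too. Of 11 genes of activation and adhesion, 3 were lower in CAM_1 and 2 in CAM_2. These were Parvg, γ-parvin (−2.83 and −3.32), Apbb1ip, which encodes the RAP1 effector RIAM (−2.16 and −2.09), and in CAM_1 Ptk2b, the kinase PYK2 (−2.26, adjusted p = 0.0296). The median log2 fold change of this list was −0.37 in CAM_1 and −0.54 in CAM_2, beside −0.12 and −0.10 over all genes. None of the lists had a called gene in Tc, and in Macro_2 none beside Vcam1 and Fn1. Without brain at 24 h replicate 2 each of these calls kept its direction and passed the test again, except Mmp12 in CAM_1 and Tgm2 in CAM_2, which did not pass the filter on low counts there. Further calls in that fit included Itgb2, the β2 chain of leukocyte integrins, lower in CAM_1 and CAM_2 (−1.25 and −1.14, adjusted p = 0.000227 and 0.00234).

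The genes most like each member were ranked by Pearson's r on log2(CPM + 10) over the 112 sums, among 7240 genes. The sums share libraries and depth, so r describes these sums and has no p. For Spp1 they were Fam20c (r = 0.764), the kinase that phosphorylates secreted proteins, the metalloprotease gene Adam8 (0.691), the scavenger receptor gene Msr1 (0.647), Tgm2 (0.629) and Por (0.625), the cytochrome P450 reductase gene. By Spearman's rho Fam20c was also first (0.694). In the 52 brain sums Msr1 and Fam20c led (both 0.814), with Itga5 in the seventh place (0.673), and in the 77 sums of the 6 libraries Adam8 led (0.764) before Fam20c (0.745).

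Itgb5 had the closest companions, Trem2 (r = 0.955), the microglial lipid receptor, and Lgmn (0.927), a lysosomal protease. Cd44 was most like S100a11 (0.853) and S100a6 (0.806), calcium-binding proteins, and Itga9 most like Mertk (0.826), a receptor for apoptotic cells, and Ppp1r9a (0.821). Itga5 was most like Tlr2 (0.794), a receptor for bacterial lipoproteins, and Tmbim1 (0.784). Itgav was most like Mgat5 (0.788) and Atp2a2 (0.761), Itgb3 most like Chd2 (0.783) and Zeb1 (0.739), Itga4 most like Rpl39 (0.792) and Rps24 (0.787), both ribosomal protein genes, and Itgb1 most like Mprip (0.630) and Prex1 (0.627). The values of r were lowest for Itgb1. They come from sums of both gene lists, and the part of this in r for the receptor genes was not tested.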

How the data were processed

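Single-cell 3′ RNA-seq of sorted CD45+CD45iv- leukocytes was used. The deposited files hold UMI counts per gene and barcode, made by the authors with Cell Ranger 6.0 on mm10, and the cluster names that the authors gave to cells kept after filtering and doublet removal (no doublet caller was run here). The authors' deposited UMAP coordinates are scores and were not used. Genes were joined by Ensembl identifier (597 carry another symbol in the shorter list). UMIs were summed per library and cluster with at least 30 cells. Sums were tested on tissue and time in R 4.3.3 by the quasi-likelihood test of edgeR 4.0.16, robust and two-sided, after filterByExpr and TMM scaling, with Benjamini-Hochberg adjustment over all genes tested. A gene was called at a fold of 2 or more with adjusted p under 0.05, and the SE is the log2 fold change over the square root of F. DESeq2 1.42.0 was the other tool. Other alternatives were scaling by total UMIs, no filter, 1 factor left out, each library left out, 10 cells, other denominators and thinning to 500 UMIs.

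Levels between clusters, and 72 h against 24 h, were not tested. Ratios between clusters of a library and between brain libraries added 0.5 counts to each sum. Ratios to control with counting intervals, and the folds flagged below, were taken without added counts. Shares have exact (Clopper-Pearson) 95% intervals, levels exact Poisson ones, and both cover counting error only. A bulk sum cannot tell fewer expressing cells from less RNA per cell. Where no UMI was seen, up to 3 are taken as possible. Total UMIs per library ranged from 6591898 to 20754181. Named genes were the 9 members, of each pathway list up to 4 called genes with the largest change per comparison, the 5 genes with the highest r to Spp1 and 2 to each receptor gene (at least 50 CPM in at least 3 sums), and the markers, of which 1 is not reported here. The members and lists were chosen with earlier results of these data known. The tests were checked on simulated counts with 4-fold changes at 24 h in 200 genes. EdgeR recovered 49%, 71%, 82% and 84% of them in CAM_1, CAM_2, Macro_2 and Tc, and DESeq2 77%, 82%, 80% and 84%. False calls were 2%, 7.19%, 11.4% and 5.62% of the calls with edgeR, and 10.5%, 5.75%, 3.03% and 6.15% with DESeq2. The simulated counts held no differences between tissues, so the check does not cover them. Python 3.11.15, numpy 2.4.6, pandas 2.3.3, scipy 1.17.1 and matplotlib 3.10.9 served for the other steps.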

Additional observations from a re-analysis of the deposited data

Results flagged for a closer look

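In Tc, Spp1 was higher at 24 h than in control in brain and pia and lower in dura. The fold was at least 11.4 in brain replicate 1 and at least 2.12 in replicate 2 (control brain had no UMI and was set at 3), 6.93 in pia and 0.378 in dura. The dura value rests on 1 cell, which held 16 of the 19 Spp1 UMIs of Tc in control dura. Leaving out the cell with the most Spp1 UMIs in each of the 2 dura libraries gave 8.31 CPM in control and 11.6 CPM at 24 h, 1.39-fold higher, so that the direction in dura turned. In CAM_1, Itgb1 was 1.82-fold and 3.42-fold its control level in the brain replicates and 0.802 of it in pia. In Macro_2, Itgb5 was 0.179 and 0.240 of control in brain and 0.902 in pia, against 1.37-fold in dura. Each of these was listed because every library of 1 tissue lay on one side of its control and the library of another tissue on the other side, by counting error alone, and the differences between tissues were not tested.

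Barcodes to which the authors gave no cluster also held Spp1 UMIs. Their level was 11654 CPM in brain at 24 h replicate 1 and 801 CPM in replicate 2, against 4.33 CPM in control brain. It was 1778 CPM in pia at 24 h against 119 CPM in control pia, and 404 CPM in dura at 24 h against 28.6 CPM in control dura. In all 3 tissues these barcodes were thus above the control level after MCAO. No group held 4 libraries, so single libraries could not be examined as outliers.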

How the results depend on the processing

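Which members passed the test depended on the library and on the tool. For 24 h against control, the number of members called was 0 in CAM_1, CAM_2, Macro_2 and Tc, against 2, 1, 0 and 0 with DESeq2 and 3, 2, 1 and 0 with no filter on low counts. With 1 library left out it ranged from 0 to 3, 0 to 2, 0 to 2 and 0 to 0, and the highest numbers in CAM_1, CAM_2 and Macro_2 came without brain at 24 h replicate 2. For pia and dura against brain it was 0 in each, against 1, 1, 0 and 1 with DESeq2, 1, 1, 0 and 0 with scaling by total UMIs, and 1, 1, 1 and 1 with no filter, and from 0 to 2, 0 to 2, 0 to 3 and 0 to 0 with 1 library left out, the highest in CAM_1 and CAM_2 coming without brain at 24 h replicate 2 and the 3 in Macro_2 without replicate 1.

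Over all genes, 0, 1, 0 and 0 were called at 24 h, against 22, 4, 5 and 0 with DESeq2 and 56, 50, 33 and 1 with no filter, and up to 370, 204, 200 and 10 with 1 library left out. Between tissues 712, 274, 25 and 22 were called, against 1084, 321, 116 and 40 with DESeq2, 1306, 512, 385 and 153 with no filter, 816, 310, 20 and 34 with scaling by total UMIs, and 813, 245, 87 and 86 with time left out of the fit. With 1 library left out these ranged from 48 to 2141, 15 to 1022, 0 to 1189 and 0 to 69. Pia and dura held 1 library per time in the main fit, and without brain at 24 h replicate 1 or replicate 2 so did brain. No group then holds replicate libraries. The spread between libraries cannot be told apart there from differences between tissues in the change at 24 h.

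The direction between tissues turned, with log2 fold changes from the lowest to the highest over the fits without 1 library, for Spp1 in CAM_1 (−1.78 to 0.57) and CAM_2 (−0.84 to 1.29) and Itga5 in CAM_2 (−3.64 to 0.45), each turning without dura at 24 h, for Spp1 in Macro_2 without brain at 24 h replicate 1 (−1.62 to 0.14), and for Itga4 in Tc without brain at 24 h replicate 2 (−2.55 to 0.032). The mean level of Itga9 in stress_Micro was 32.1 CPM with at least 10 cells against 64.3 CPM. The share of SAMC of brain at 72 h with a Spp1 UMI was 99% thinned to 500 UMIs. The causes were not tested. The fold of Spp1 in Tc of dura at 24 h over control turned from 0.378 to 1.39 with the highest cell of each library left out. This alternative and those on the 6 libraries of the longer gene list were chosen after the data were seen. No paired analysis was possible because the labels number replicates for brain at 24 h alone.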
